A study of Homo sapiens with 16 samples.

Results

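The genes described here are 10 that encode glycoproteins, proteoglycans and cross-linking enzymes of the extracellular matrix: FN1, SPARC, THBS1, THBS2, TNC, FBN1, BGN, VCAN, LOX and LOXL2. They were found by symbol, 1 row each, among the 60669 genes of the deposited tables. The genes were chosen by symbol with their fold changes and adjusted p-values in both library types in view, so their differences between genotypes are a description. The adjusted p-values below say only where a fit over all genes placed them.

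The cells were HMC3, a human microglial cell line, either wild type or labelled as a knockout of METTL3, the catalytic subunit of the enzyme that writes N6-methyladenosine (m6A) on RNA. No treatment is named for any group, and the labels do not say whether the knockout is 1 clone or whether replicates came from separate cultures, so the spread between libraries may be technical. Of 16 libraries, 5 per genotype were made from polyadenylated RNA with Smart-seq2 and 3 per genotype after removal of ribosomal RNA with a directional kit. The rRNA-depleted libraries were used as TPM, the share of each gene among the transcripts of a library per gene length, and the poly(A) libraries through the authors' deposited table, which has no values by library.

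The extracellular matrix is a mesh of fibrous proteins, adhesive glycoproteins and hydrated proteoglycans that cells secrete and then bind through integrins and other receptors. Fibronectin and fibrillin form fibres, lysyl oxidases cross-link collagen and elastin, and matricellular proteins such as SPARC, thrombospondins and tenascin-C tune adhesion and growth factor signals without being structural. In healthy brain tissue fibronectin and tenascin-C are sparse, and they are known to accumulate after injury.

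For the rRNA-depleted libraries, reads in genes of known length were recovered from TPM and gene length. They numbered between 266157 and 487272 per library in the wild type and between 512627 and 1267171 in the knockout label. Depth over these genes thus moved with genotype. Libraries 1 and 2 of the knockout label differed by no more than sampling noise, with a chi-square of 1.02 per degree of freedom over 10117 genes, against 1.16 to 1.54 for the other pairs with the same label. They were averaged and counted as 1 sample, which leaves 3 wild-type and 2 knockout-labelled samples. An SD for the knockout label is over those 2 samples, and the libraries themselves can be spread more widely. METTL3 itself was not lower in the libraries labelled knockout, with 31.2, 31.6 and 25.4 TPM in the wild type against 39.2, 39.96 and 42.7 TPM, so its mRNA does not check the label. Its log2 change in the authors' deposited table was 0.09 (SE 0.11, adjusted p 0.654). Genes named 7SK summed to means of 38229 TPM in the wild type against 150938 TPM. The median log2 change of the 14789 tested genes was 0.41, and 0.11 with median ratio scaling of the libraries, so each change is also given relative to that median. Of 12 microglial markers 8 were listed at 0 in all 6 libraries, among them AIF1, CX3CR1, P2RY12, TMEM119 and PTPRC. Of 11 markers of fibroblasts and mesenchymal cells 7 reached 5 TPM, with a sum of 11210 to 13581 TPM in the wild type against 3766 to 3965 TPM in the knockout label, and COL1A1 alone had means of 10669 and 819 TPM. Without COL1A1 the sum ran the other way, from 1586 to 1633 TPM in wild-type libraries and from 2967 to 3100 TPM in knockout-labelled ones. The part of depth, of 7SK and of these markers in the results below was not tested. Fewer expressing cells and less RNA per cell cannot be told apart in such bulk libraries.

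VCAN, LOX and BGN are shown by the 250 bases before their RefSeq transcription start. VCAN and LOX had the largest changes among the 10 genes in the rRNA-depleted libraries. BGN, like FN1 and TNC, had opposite signs in the 2 library types, and its values lay furthest apart. That holds only if the sign of the poly(A) comparison is read as described below. The windows are chr5:83471494-83471743 on the plus strand for VCAN, chr5:122078260-122078509 on the minus strand for LOX and chrX:153494730-153494979 on the plus strand for BGN, all from RefSeq on GRCh38.p14. Each overlaps the gene as GENCODE 29 draws it, from an earlier start, and the VCAN window lies wholly within it. Capitals mark matches on either strand to 5 motifs, none of which overlap another here. These were GGGCGG for the GC box, which transcription factors of the Sp family bind, CCAAT for the site of the same name, TATAAA for the core promoter element, TGACTCA for AP-1 and GGAATG for the TEAD factors.
VCAN: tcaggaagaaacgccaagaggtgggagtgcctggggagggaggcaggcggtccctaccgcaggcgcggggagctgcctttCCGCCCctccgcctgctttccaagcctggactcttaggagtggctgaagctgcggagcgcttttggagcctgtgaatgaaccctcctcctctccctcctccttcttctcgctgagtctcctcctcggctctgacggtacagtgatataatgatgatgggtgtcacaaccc
LOX: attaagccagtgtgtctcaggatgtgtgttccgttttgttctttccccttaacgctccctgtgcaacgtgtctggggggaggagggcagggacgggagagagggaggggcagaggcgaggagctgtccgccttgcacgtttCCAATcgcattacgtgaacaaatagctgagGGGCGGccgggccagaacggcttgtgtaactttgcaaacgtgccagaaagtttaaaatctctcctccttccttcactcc
BGN: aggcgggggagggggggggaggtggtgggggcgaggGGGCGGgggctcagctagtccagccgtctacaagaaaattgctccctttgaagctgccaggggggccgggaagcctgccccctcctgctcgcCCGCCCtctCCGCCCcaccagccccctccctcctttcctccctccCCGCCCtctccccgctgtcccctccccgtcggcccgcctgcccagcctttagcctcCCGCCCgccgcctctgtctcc
The BGN window held 5 matches to the GC box and the VCAN and LOX windows 1 each, and LOX also held 1 match to the CCAAT site. Among 27305 promoters of the same length, 42.3% held a GC box and 33.0% the CCAAT site. Of the other 3 motifs, TATAAA occurred in 11.1% of all promoters, the AP-1 motif in 4.16% and the TEAD motif in 11.9%, and the windows of VCAN, LOX and BGN held 0 of them. A RefSeq window was found for 9 of the 10 genes, LOXL2 being the other. Of those 9, FN1 held 6 GC boxes, THBS1 held 4 and TNC held 1, whereas SPARC, THBS2 and FBN1 held 0. The TEAD motif had 2 matches in THBS2 and 1 each in SPARC, THBS1 and FBN1. THBS2 also held 1 match to TATAAA, and FN1 and THBS1 held 1 match each to the CCAAT site.

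In wild-type HMC3 cells, FN1 stood first among the 10 genes in TPM, with a mean of 835 ± 34.3 TPM (SD, n = 3). SPARC at 514 ± 32.9 TPM, THBS1 at 460 ± 21.9 TPM and LOXL2 at 363 ± 15.2 TPM followed. These 4 genes lay above 98.0% or more of the tested genes. TNC (71.7 ± 12.4 TPM) and THBS2 (58.8 ± 8.01 TPM) came next, and their ranges overlapped. BGN (37.0 ± 11.9 TPM), LOX (21.7 ± 2.60 TPM), FBN1 (8.61 ± 0.569 TPM) and VCAN (5.79 ± 1.77 TPM) were the lowest, and VCAN lay above only 29.3% of the tested genes. Apart from TNC and THBS2, neighbours in this order had ranges that did not overlap. The TPM matched lengths over all annotated exons of a gene. With the longest transcript as the length instead, LOXL2 moved above THBS1 (584 against 542) and the rest of the order held. In the knockout label FN1 was again first, followed by THBS1 and SPARC, whose ranges overlapped, and then LOXL2. LOX and TNC came next with overlapping ranges, then BGN, THBS2, VCAN and, as the lowest, FBN1. LOX thus lay above 94.1% of tested genes there, against 61.8% in the wild type.

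**Figure D1:**
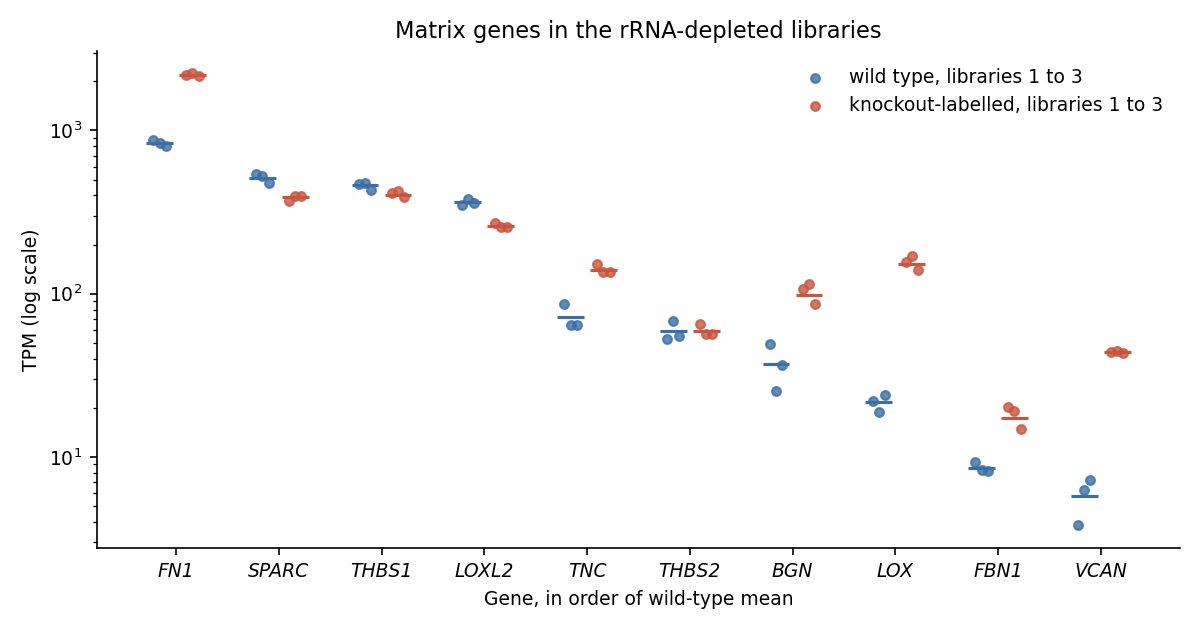
TPM (log axis) of the 10 matrix genes in each rRNA-depleted library, wild type in blue and knockout label in red, with lines at the group means, in which knockout-labelled libraries 1 and 2 count as 1 sample. FN1, LOX, VCAN, BGN, TNC and FBN1 were higher in every knockout-labelled library than in every wild-type library, SPARC, LOXL2 and THBS1 were lower, and THBS2 overlapped.

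The comparison of rRNA-depleted libraries asks which RNAs differ between the genotypes without selection for a poly(A) tail. Of the 10 genes, all of which passed the filter on low values, 5 rose (FN1, TNC, BGN, VCAN and LOX), 2 fell (SPARC and LOXL2) and 3 did not pass (THBS1, THBS2 and FBN1), by limma with Benjamini-Hochberg adjustment at 0.05 over all genes. The background was 35.3% of genes past the threshold, 22.9% higher and 12.4% lower. These were 3382 and 1838 genes, and with median ratio scaling 2364 and 2499. Nothing is read from the count, since the genes were chosen with this contrast known. The median log2 change of the 10 was 0.94, or 0.53 relative to all genes. The samples of the 2 groups did not overlap for 9 of the 10, against 62.7% of all genes.

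FN1 encodes fibronectin, an adhesive glycoprotein that integrins assemble into fibrils. FN1 (ENSG00000115414; chromosome 2, 215360440 to 215436172, minus strand, GRCh38) had 871, 832 and 803 TPM in the wild type, in the order of replicate numbers used throughout, against 2189, 2237 and 2168 TPM in the knockout label. The lowest knockout-labelled library was far above the highest wild-type one, and the spread within each label was small. The means were 835 and 2191 ± 31.5 TPM (SD, n = 2), a ratio of 2.62. The log2 change was 1.39 (SE 0.09) on the log2(TPM + 1) scale, and 0.98 relative to all genes, from 1392 to 14139 reads per library.

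Among the matricellular genes, SPARC (ENSG00000113140; chromosome 5, 151661096 to 151687165, minus strand), a collagen-binding glycoprotein, had 541, 523 and 477 TPM in the wild type against 371, 395 and 394 TPM in the knockout label. All 3 knockout-labelled values were below the wild-type ones, with group means of 514 and 389 ± 8.10 TPM. The log2 change was -0.40 (SE 0.10), and -0.81 relative to all genes. SPARC was the called gene nearest to the threshold, with a limma adjusted p of 0.0305. The call was lost without replicate 1 of the wild type (limma adjusted p 0.0789) or replicate 2 (0.0607), with quantile normalization (0.0794) or with no filter on low values (0.0545).

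THBS1 and THBS2 encode thrombospondins, trimeric glycoproteins that bind cell surface receptors and limit blood vessel growth. THBS1 (ENSG00000137801; chromosome 15, 39581079 to 39599466, plus strand) had 472, 473 and 435 TPM in the wild type against 417, 423 and 389 TPM in the knockout label. The groups did not overlap, but they lay close, with means of 460 and 404 ± 22.2 TPM. The log2 change of THBS1 was -0.19 (95% interval -0.43 to 0.06) and its limma adjusted p was 0.194. It was -0.60 relative to all genes, and with median ratio scaling it was -0.54 and passed (limma adjusted p 0.0147), so its call depended on the scaling. THBS2 (ENSG00000186340; chromosome 6, 169215780 to 169254044, minus strand) had 53.1, 67.9 and 55.2 TPM in the wild type against 65.5, 56.9 and 56.5 TPM in the knockout label. Its groups overlapped, at 58.8 and 58.9 ± 3.31 TPM, with a log2 change of 0.01 (95% interval -0.41 to 0.43), or -0.40 relative to all genes. The ratio of THBS1 to THBS2 TPM, which no scaling of a library can change, was 7.91 ± 0.955 in the wild type and 6.87 in the knockout label. Knockout-labelled libraries 1 to 3 had ratios of 6.36, 7.44 and 6.87, and the ranges of the 3 libraries of each label overlapped.

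TNC (ENSG00000041982; chromosome 9, 115019578 to 115118257, minus strand) encodes tenascin-C, a large glycoprotein that modulates adhesion to fibronectin. It had 86.0, 64.4 and 64.6 TPM in the wild type against 152, 136 and 136 TPM in the knockout label. Wild-type library 1 was the highest of its label and still below every knockout-labelled library. The log2 change was 0.97 (SE 0.17), and 0.56 relative to all genes.

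FBN1 (ENSG00000166147; chromosome 15, 48408306 to 48645849, minus strand) encodes fibrillin-1, the main protein of extracellular microfibrils. It was near the low end, with 9.26, 8.38 and 8.20 TPM in the wild type against 20.2, 19.1 and 14.9 TPM in the knockout label, from 13 to 112 reads. Every knockout-labelled library was above the wild type, but library 3 was the lowest of its label. The log2 change was 0.92 (SE 0.31), or 0.50 relative to all genes, and the limma adjusted p was 0.0752. With the 6 libraries as separate samples FBN1 passed, at 0.0193 (limma adjusted p), but not with the replicate block added, at 0.0579. FBN1 also passed with voom on recovered reads and in the fit of genes with a mean of at least 5 recovered reads.

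BGN and VCAN encode proteoglycans: biglycan, a small leucine-rich one, and versican, a large chondroitin sulfate one that binds hyaluronan. BGN (ENSG00000182492; chromosome X, 153494939 to 153509554, plus strand) had 49.1, 25.3 and 36.6 TPM in the wild type against 107, 114 and 86.9 TPM in the knockout label. The wild-type libraries were spread widely for this gene, on 17, 6 and 15 reads, and still did not reach the knockout-labelled ones. The log2 change was 1.43 (SE 0.31). It was 1.02 relative to all genes, and the call was lost without replicate 3 of the wild type (limma adjusted p 0.0509).

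VCAN (ENSG00000038427; chromosome 5, 83471465 to 83582303, plus strand) had 3.82, 6.28 and 7.27 TPM in the wild type against 44.1, 44.3 and 43.1 TPM in the knockout label. The wild-type values rested on 8, 9 and 18 reads and the others on 99 to 240. The ratio of the means was 7.54, the log2 change was 2.75 (SE 0.35), and it was 2.34 relative to all genes. VCAN went from above 29.3% of tested genes in the wild type to above 74.4% in the knockout label. The ratio of VCAN to BGN was 0.175 ± 0.0876 (SD, n = 3) and 0.449 ± 0.0674 (SD, n = 2).

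LOX and LOXL2 encode lysyl oxidases, copper enzymes that oxidize lysines of collagen and elastin so that cross-links can form. LOX (ENSG00000113083; chromosome 5, 122063195 to 122078360, minus strand) had 22.0, 18.9 and 24.1 TPM in the wild type against 157, 171 and 141 TPM in the knockout label. The groups lay far apart, with a ratio of means of 7.02, a log2 change of 2.76 (SE 0.18) and 2.35 relative to all genes. LOXL2 (ENSG00000134013; chromosome 8, minus strand) had 349, 379 and 362 TPM in the wild type against 270, 255 and 255 TPM in the knockout label. Here every knockout-labelled library was lower, and the log2 change was -0.49 (SE 0.09), or -0.90 relative to all genes. With the GC trend removed the LOXL2 value was 0.055 and its call was lost (limma adjusted p 0.73). LOX was thus at 0.0599 ± 0.00878 of the LOXL2 level in the wild type and at 0.588 ± 0.0512 in the knockout label, a ratio that scaling of a library cannot change.

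Leaving out knockout-labelled library 3 left 1 sample with that label, assumed to vary like the wild type. FN1 and LOX still passed then, at limma adjusted p-values of 0.0193 and 0.0150. SPARC (0.124), TNC (0.101), BGN (0.131), VCAN (0.0735) and LOXL2 (0.0755) did not, and their log2 changes kept their sign.

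Together the 10 genes summed to 2375 ± 93.9 TPM in the wild type against 3753 ± 97.4 TPM in the knockout label, most of the difference being FN1. Without FN1 the sums were 1540 ± 61.8 and 1562 ± 65.9 TPM, which overlapped. FN1 made up 35.5%, 34.7% and 35.3% of the summed TPM in the wild type but 57.7%, 58.1% and 58.9% in the knockout label. SPARC took 21.6 ± 0.541% and then 10.4 ± 0.485%, and LOXL2 15.3 ± 0.962% and then 6.89% (6.63% to 7.11% over the libraries). The LOX share was 0.915 ± 0.136% in the wild type and 4.05 ± 0.334% in the knockout label.

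**Figure D2:**
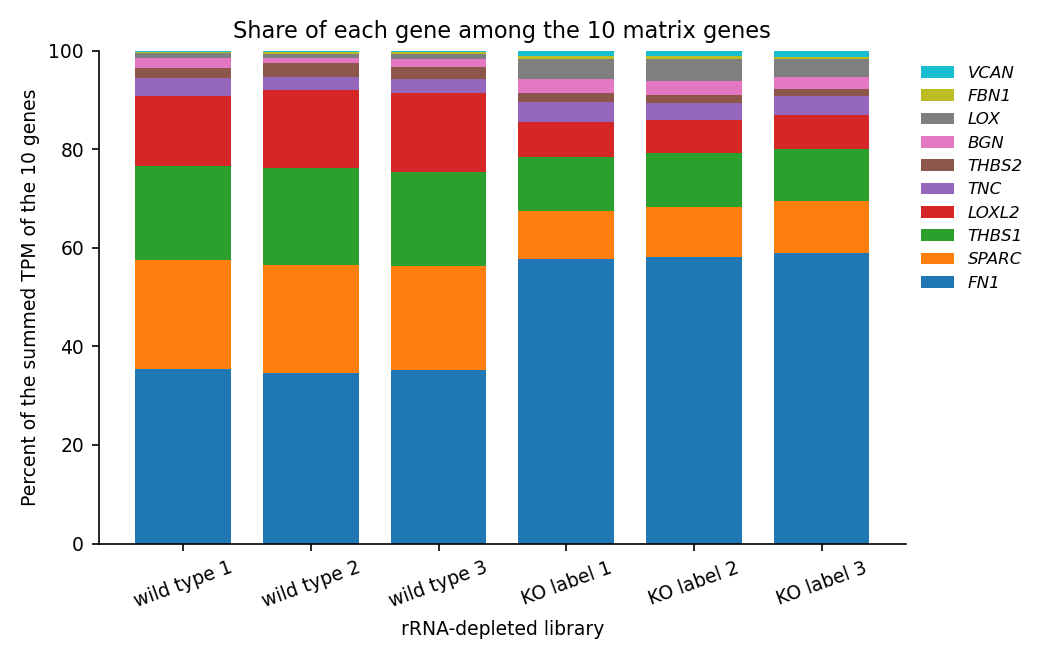
Percent of the summed TPM of the 10 matrix genes taken by each gene, 1 bar per rRNA-depleted library. FN1 took 34.7% to 35.5% in the wild type and 57.7% to 58.9% in the knockout label, and the segments of SPARC, THBS1 and LOXL2 were narrower in the knockout label.

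The poly(A) comparison asks the same of polyadenylated mRNA. The table does not name the numerator of its fold change. Positive values were read as higher in the knockout label: on this reading 162 of 177 genes (91.5%) that passed in both library types with changes of 1 or more on the log2 scale had matching signs. Were the reading wrong, every direction from the table would be opposite. By the authors' deposited table, 3 of the 10 genes were higher (VCAN, LOX and FBN1), 5 were lower (BGN, TNC, FN1, SPARC and LOXL2) and 2 did not pass an adjusted p of 0.05 (THBS1 and THBS2). The background in that table was 19.9% of 14009 genes, 9.55% higher and 10.3% lower, and here too nothing is read from the count. The median log2 value of the 10 in the authors' deposited table was -0.11, against 0.02 over all its genes with an adjusted p-value.

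VCAN had the largest change of the 10, a log2 value of 2.84 (SE 0.22) or 7.14-fold in the authors' deposited table. LOX and FBN1 stood at 1.07 (SE 0.09) and 0.78 (SE 0.22) there, also by the authors' deposited table. For BGN the authors' deposited table gave -1.66 (SE 0.18), which is 3.17-fold lower, and for TNC -0.59 (SE 0.17). For the remaining called genes, the authors' deposited table gave -0.34 (SE 0.11) for FN1, -0.33 (SE 0.04) for SPARC and -0.32 (SE 0.09) for LOXL2. THBS1 at 0.11 (SE 0.12) and THBS2 at 0.14 (SE 0.12) had adjusted p-values of 0.59 and 0.472 in the authors' deposited table. Mean normalized counts per kb of exon, pooled over both genotypes in the authors' deposited table, were 427 for SPARC, 415 for FN1 and 322 for THBS1, and 1.85 for FBN1, the lowest.

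Set side by side, 7 of the 10 genes passed the threshold in both library types, 4 of them with the same sign (VCAN, LOX, SPARC and LOXL2) and 3 with opposite signs (FN1, TNC and BGN). Among all 1327 genes that passed in both, 67.3% had the same sign. Were the table's sign turned, FN1, TNC and BGN would match, the other 4 would not, and the share over all genes would be 32.7%. As read here, BGN went furthest apart, at 1.43 in the rRNA-depleted libraries and -1.66 in the authors' deposited table, whereas with the sign turned VCAN would. In the same order, FN1 stood at 1.39 and, in the authors' deposited table, -0.34, and TNC at 0.97 and -0.59. For VCAN the values lay within their errors, 2.75 (SE 0.35) and 2.84 (SE 0.22 in the authors' deposited table). Relative to the median of all genes in each library type, VCAN stood at 2.34 and, in the authors' deposited table, 2.82. LOX was higher in both, by 2.76 and, in the authors' deposited table, 1.07. Whether the change of a gene differs between the library types was not tested.

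**Figure D3:**
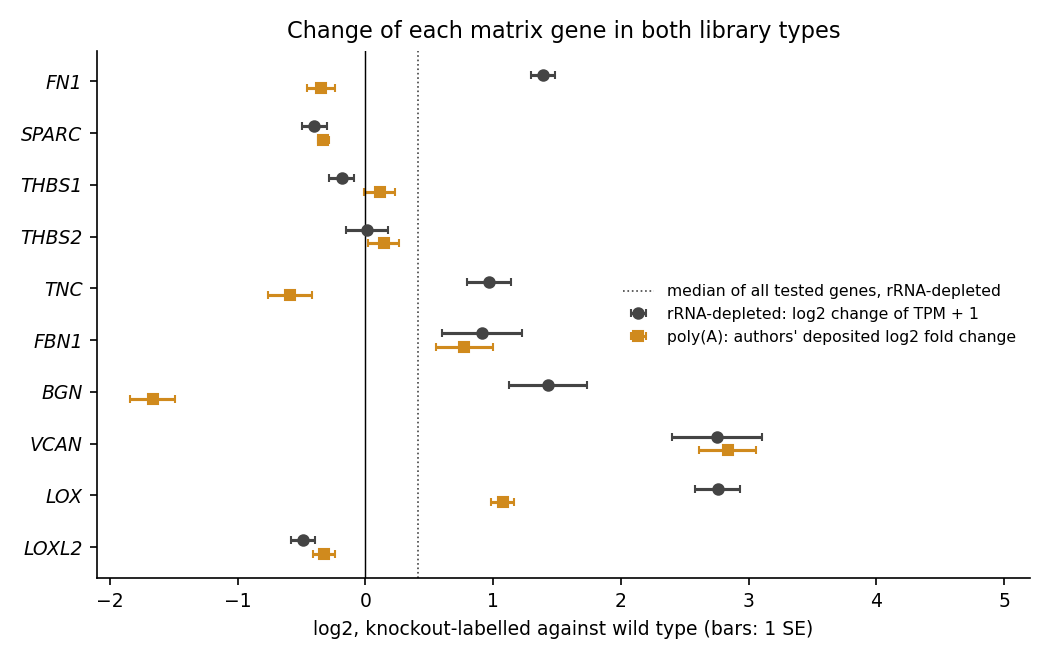
Log2 change of each gene, knockout label against wild type, with bars of 1 SE: circles for the rRNA-depleted libraries (TPM + 1), squares for the authors' deposited poly(A) table, dotted line at the rRNA-depleted median of 0.41. VCAN, LOX and FBN1 lie above 0 in both, SPARC and LOXL2 below 0 in both, and FN1, TNC and BGN on opposite sides.

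Log2 changes in the rRNA-depleted libraries ran with the GC content of transcripts (Spearman correlation -0.37 over 14669 genes, and genes are no independent replicates). The median change was 1.19 for genes under 40% GC, 0.76 at 40% to 50%, 0.10 at 50% to 60% and -0.33 at 60% or more. LOX (39.6% GC), FN1 (42.2%) and VCAN (42.9%) lay on the side of low GC and LOXL2 (58.2%) and BGN (61.2%) on the side of high GC. Once the trend with GC was taken out of every library, LOX stood at 2.13, VCAN at 2.31, FN1 at 0.91 and BGN at 2.07, all still past the threshold. THBS1 then passed as lower, at -0.46 (limma adjusted p 0.0211), and LOXL2 did not pass, as given above.

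The transcripts were also described by length and by GGACT, a form of the motif in which m6A is most often found, since METTL3 is the writer. m6A itself was not measured in these libraries. The longest annotated transcripts ran from 2402 bases for BGN to 12625 bases for VCAN, against a median of 3736.5 bases over 11784 tested protein-coding genes. THBS1 held 16 matches to GGACT, on the transcript strand only, which is 2.06 per kb, and SPARC held 7, which is 1.89 per kb. FN1 held 4 matches (0.436 per kb) and FBN1 held 6 (0.510 per kb), and the median over those protein-coding genes was 0.922 per kb. The genes past the threshold lay on both sides of that median, from FN1 at 0.436 to SPARC at 1.89 per kb.

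Exons of another gene overlapped 6 of the 10 genes. The overlap was on the opposite strand for SPARC, THBS1, TNC, VCAN and LOX, and on both strands for LOXL2. It covered at most 7.89% of the exon length, for SPARC and an antisense gene listed at 0 TPM. The partners with the most signal were SRFBP1, which shares 2.49% of the LOX exon length and reached 52.8 TPM, and ENTPD4, which shares 2.10% of that of LOXL2 and reached 47.5 TPM. Whether the counting used strand is not given in the sources used here, so a small part of these reads may belong to the partner.

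Other genes of the same biology were taken from 5 lists. Together they held 122 genes, of which 87 were tested in the rRNA-depleted libraries, with 18 higher (20.7%), 15 lower (17.2%) and 54 not past the threshold, against 22.9% higher and 12.4% lower over all genes, the shares that the counts by list below stand beside. Their median log2 change was 0.22, or -0.19 relative to all genes. By the authors' deposited table, of 89 with an adjusted p-value, 13 were higher (14.6%) and 9 lower (10.1%), against 9.55% and 10.3% over all its genes.

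Of 32 other matrix glycoproteins, 6 rose and 5 fell, with a median of -0.25 relative to all genes. AGRN, the heparan sulfate proteoglycan agrin, fell from 475 ± 47.4 to 148 ± 12.3 TPM, a log2 change of -1.67 (SE 0.13). IGFBP7, a secreted binding protein for insulin-like growth factors, fell from 390 ± 95.5 to 42.9 ± 19.8 TPM (-3.20, SE 0.34). FBLN2, which encodes fibulin-2, was listed at 0 in all 3 knockout-labelled libraries against 8.71 ± 0.115 TPM from 4 to 7 reads, at least 2.94-fold lower when 3 reads per library are allowed. THBS3, another thrombospondin, rose from 5.18 ± 1.12 to 25.8 ± 4.88 TPM (2.12, SE 0.36). ECM1 and ABI3BP rose from wild-type levels of 1 or 2 reads (ECM1) and of 1 to 4 reads (ABI3BP) per library, to 29.1 ± 3.08 and 7.24 ± 0.583 TPM, and ABI3BP did not pass under 8 of 16 alternatives. None of these 6 passed in the authors' deposited table.

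Of 11 genes in the list of other proteoglycans, which also holds link proteins, 2 rose and 5 fell, with a median of -1.24 relative to all genes. SDC4, 1 of these 5, is also in the list of receptors. SRGN, which encodes the granule proteoglycan serglycin, rose from 186 ± 27.1 to 899 ± 134 TPM (2.27, SE 0.17), and SPOCK1, the proteoglycan testican-1, from 7.44 ± 1.12 to 28.4 ± 6.20 TPM (1.79, SE 0.32). The authors' deposited table had both higher too, at 0.45 and 1.08 on the log2 scale. Among the genes past the threshold, the link protein gene HAPLN3 (-1.91), the chondroitin sulfate proteoglycan gene CSPG4 (-1.42) and the syndecan gene SDC3 (-1.33) fell most. None of these 3 passed in the authors' deposited table. With the GC trend removed these 3 lost their calls.

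Of 16 other enzymes and chaperones that modify collagen and elastin, 4 rose and 2 fell. PLOD2, a lysyl hydroxylase, rose from 72.2 ± 9.55 to 151 ± 19.3 TPM (1.06, SE 0.16), PXDN, the peroxidase that cross-links collagen IV, from 69.4 ± 4.94 to 143 ± 7.38 TPM (1.04, SE 0.12), and P4HA2, a prolyl hydroxylase subunit, by 0.96 (SE 0.27). The prolyl 3-hydroxylases P3H3 (-0.79) and P3H1 (-0.77) fell. Relative to all genes, PLOD2, PXDN and P4HA2 stood at 0.65, 0.63 and 0.55, and P3H3 and P3H1 at -1.20 and -1.18. The authors' deposited table had PXDN higher too (0.39), where the other 4 did not pass. P4HA2 lost its call under 7 of 16 alternatives, among them median ratio scaling, and PLOD2 and P3H3 with the GC trend removed.

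Of 19 genes for glycosaminoglycan chains and hyaluronan, 1 rose and 3 fell. HAS2, a hyaluronan synthase, rose from 3, 0 and 1 reads in the wild type to 15 to 40 reads per library (26.1 ± 4.21 TPM). Its call was lost under 4 of 16 alternatives. FAM20B, the xylose kinase of the linker region, fell from 112 ± 13.6 to 33.8 ± 3.99 TPM (-1.69, SE 0.16). B3GAT3 of the same linker fell from a mean of 89.7 ± 28.5 to 31.8 TPM (-1.42, SE 0.27). Its knockout-labelled libraries 1 to 3 had 19.3, 44.0 and 31.9 TPM, a spread that averaging libraries 1 and 2 hides. CHPF, a chondroitin polymerizing factor, fell by 0.66 on the log2 scale. With the GC trend removed B3GAT3 and HAS2 did not pass and CHPF stood at 0.27. None of the 4 passed in the authors' deposited table.

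Of 10 genes in the list of cell surface receptors, 5 rose and 1 fell, with a median of 1.03 relative to all genes. CD44, the hyaluronan receptor, rose from 28.1 ± 1.42 to 320.5 ± 0.971 TPM, a log2 change of 3.47 (SE 0.12), and had 1.10 in the authors' deposited table. The fibronectin receptor subunits ITGB1 (80.7 ± 18.1 to 265 ± 45.0 TPM) and ITGA5 (33.8 ± 8.69 to 85.7 ± 3.12 TPM) rose by 1.71 and 1.35, but neither passed in the authors' deposited table (-0.14 and 0.20). CD47, a receptor of thrombospondin-1, rose from 2.16 ± 1.95 to 19.0 ± 1.42 TPM, lost its call under 6 of 16 alternatives, and was higher in the authors' deposited table (0.83). LRP1, an endocytic receptor, rose by 0.48 (SE 0.12), which is only 0.07 relative to all genes. LRP1 lost its call under 6 of 16 alternatives, and its adjusted p in the authors' deposited table was 0.998. SDC4, a syndecan that acts with integrins on fibronectin, fell from 591 ± 25.5 to 298 ± 19.5 TPM (-0.99, SE 0.10), against -1.02 in the authors' deposited table. Relative to the median of each library type, SDC4 stood at -1.40 and, in the authors' deposited table, -1.04. ITGAV (0.18) and ITGB5 (-0.24) did not pass.

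Without replicate 3 of the knockout label, 18 of the 26 named genes of these lists that had passed lost their calls. The 8 that passed then too were AGRN, IGFBP7, FBLN2, SRGN, PXDN, FAM20B, CD44 and SDC4.

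**Figure D4:**
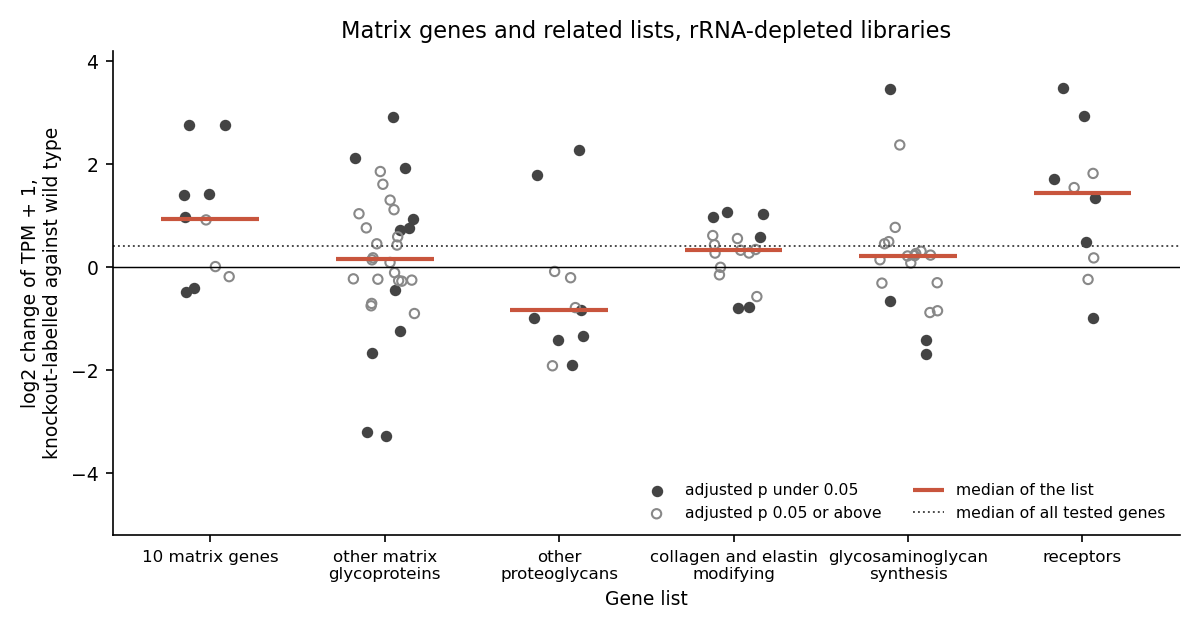
Log2 change (TPM + 1) of each tested gene in the rRNA-depleted libraries for the 10 matrix genes and 5 related lists, filled where the adjusted p was under 0.05, with red lines at list medians and a dotted line at the median of all genes, 0.41. The receptor list has its median at 1.45 and the list of other proteoglycans at -0.83.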

How the data were processed

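RNA-seq of HMC3 cells was analysed by genotype and library type, as given in the sample titles. Input was 100 ng of RNA, per the labels' protocols. The submitters' processing notes name Trimmomatic, STAR, DESeq2 and hg38. The counting tool, annotation and strand setting are not given in the sources used here. Per the file headers, the authors' deposited poly(A) table holds mean normalized counts (a pooled signal), log2 fold changes and their errors, Wald statistics (a score) and each p-value before and after adjustment. TPM were what the authors deposited for rRNA-depleted RNA, and they sum to the same total in each library.

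Reads were recovered from TPM and GENCODE 29 exon lengths, which matched 93.8% of genes. Of these, 90.9% of values above 0 came out whole, to within 0.02 reads. LOX and THBS2 did not, so their reads are approximate. limma 3.58.1 in R 4.3.3 (eBayes with trend) was run on log2(TPM + 1) for genes that reached 1 TPM in 3 or more libraries, with Benjamini-Hochberg adjustment. This scale understates the change of low genes. The GC trend was removed by loess with a span of 0.5. The fit was tested on simulated reads. Over all tested genes it recovered 11.5% of 200 genes that were given a log2 change of 2, up or down. Beside these 23 true calls it made 15 false ones, all of genes with under 5 reads on average. In a separate fit of only the genes with 5 or more it recovered 68.5%, with 137 true calls and 1 false one. The 10 genes all had 5 or more, but their calls come from the fit over all genes. Recovery of genes with 5 or more reads in that fit was not computed. The simulation used 1 dispersion (0.02) and no GC trend, so it does not measure how reliable the calls of the 10 genes are. Python 3.11.15 and matplotlib 3.10.9 served the other steps.

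The 10 genes, the lists and the averaging were chosen with earlier results of these data known. Named from each list were up to 3 risen and 3 fallen genes past the threshold, by size of change, given a group mean of 5 TPM or more and groups that do not overlap. All receptors at that level may be named. COL1A1 and the 7SK genes were named after their values were seen.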

Additional observations from a re-analysis of the deposited data

How the results depend on the processing

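Each of the 10 genes was refitted under 16 alternatives, 1 of which (a mean of at least 5 recovered reads) was chosen after seeing the data. FN1 and LOX passed in all of them, with log2 changes of 0.91 to 1.55 and 2.13 to 2.87. THBS2 passed in none. LOXL2 reversed with the GC trend removed, to 0.055, and so did CHPF, to 0.27. As reported, 5 of the 10 genes were higher and 2 lower in the rRNA-depleted libraries. The number lower was 1 without the filter and 1 with quantile normalization. At an adjusted p of 0.01 it was 3 higher and 0 lower, and 0 were lower when a log2 change of 1 or more was required, which also left 1 lower in the authors' deposited table. At 0.01, limma called 0 of the 10 lower, 2 of them having an unadjusted p under 0.05. Without 1 library at a time, 2 to 5 were higher and 0 to 2 lower, both lowest counts coming without knockout-labelled library 3. Of all genes, 3382 were higher and 1838 lower. Voom on recovered reads gave 3509 lower, a threshold of 0.01 gave 1401 higher and 841 lower, and leaving out 1 library gave 1004 to 3356 higher and 659 to 1829 lower. Median ratio scaling gave 2364 higher and 2499 lower. In the 5 lists together, 18 were higher and 15 lower. This became 8 lower with the GC trend removed, 10 higher with median ratio scaling, 29 lower with voom, 5 higher and 6 lower at 0.01, and 9 lower when a log2 change of 1 or more was required. Without 1 library it was 3 to 19 higher and 5 to 15 lower. The cause of these shifts was not tested.

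Replicate numbers are shared between the labels, but same-numbered libraries did not deviate together (correlations 0.02, -0.02 and 0.01 across genes), so they share only a number. With the replicate block and 6 separate libraries, 5 of the 10 genes were higher and 2 lower, and 4037 of all genes were higher and 2000 lower, against 4633 and 2247 for 6 separate libraries without it. Of the 3 wild-type libraries, replicate 3 correlated best with its own number and replicates 1 and 2 with another. Depth limits BGN, VCAN, LOX and FBN1 most, with as few as 6, 8, about 10.1 and 13 reads in a wild-type library.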
